A study of Mus musculus with 10 samples.

Results

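The genes examined here are named for the proteins of the cytosolic ribosome and were read from exon arrays of newborn mouse forebrain. They were taken as every row of the deposited table with a single symbol of this family in the platform annotation. Such a symbol starts with Rpl or Rps and a digit, p0, p1, p2 or a. S6 kinases and symbols that mark a pseudogene (-ps) were left out. The rule found 38 rows for 35 genes, among 13534 genes with a single-symbol row and 65529 rows in all. By name, 25 are of the large subunit and 10 of the small subunit. Each gene was read on its brightest row. A further 48 rows carry several symbols with a ribosomal protein among them and were not members. The name of a row was called out of place when its gene lies on another chromosome than most of the nearest 20 named rows on each side in identifier order. This was so for 10 of the 35 genes, and which transcript those rows read is uncertain.

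Forebrain came from pups on postnatal day 0. Both groups share a mixed genetic background, C57BL/6 with CD-1. The groups were 5 wild-type animals and 5 animals of genotype Elavl3-/-;Elavl4-/-, the double knockout, which lack 2 RNA-binding proteins of neurons. The tissue is the whole forebrain with all its cell types, and each array is 1 animal. The series speaks of littermate pairs, which the labels do not name.

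A ribosome is built from ribosomal RNA and a large set of small, basic proteins, most of them present once in each particle. The small subunit decodes the mRNA, and the large subunit joins amino acids and releases the chain through an exit tunnel. Most mRNAs of these proteins start with a C followed by a run of pyrimidines, the terminal oligopyrimidine or TOP tract, through which mTORC1 and Larp1 control their translation together. Ribosomal protein genes also have many processed copies in the genome, and a probe can match both the gene and a copy.

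The start sites are shown because such a tract is described for most of these mRNAs. Windows run from 10 bases before to 20 bases from the annotated start, 30 bases in all, from RefSeq on GRCm38.p6. Capitals mark a C followed by 4 or more pyrimidines (C or T) that begins within 5 bases of the annotated start, on the strand of the gene only. The first 5 windows hold such a tract and the last 2 hold none.
Rpl35, chr2:39005112-39005141, minus strand: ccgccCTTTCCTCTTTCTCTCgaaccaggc
Rplp2, chr7:141447641-141447670, plus strand: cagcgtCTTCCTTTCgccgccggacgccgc
Rpl12, chr2:32961702-32961731, plus strand: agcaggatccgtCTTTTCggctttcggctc
Rps10, chr17:27635225-27635254, minus strand: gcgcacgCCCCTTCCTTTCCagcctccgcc
Rps18, chr17:33955646-33955675, minus strand: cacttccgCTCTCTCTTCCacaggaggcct
Rpl4, chr9:64173377-64173406, plus strand: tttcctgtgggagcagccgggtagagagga
Rplp0, chr5:115559457-115559486, plus strand: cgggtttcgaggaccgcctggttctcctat
The promoter table held 26 of the 35 genes, and 14 of them (53.8%) had a tract at 1 or more annotated starts. Over all 27025 genes of that table the share was 21.2%. Counted by start, 15 of 31 starts of the members (48.4%) and 18.3% of all 32851 starts held one. The genes without an entry were Rpl7, Rpl8, Rpl17, Rpl23a, Rpl29, Rpl36, Rplp1, Rps4l and Rps20. A window without capitals holds no tract that begins within 5 bases of the annotated start; such letters can lie further on, as in the Rplp0 window.

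The targeted genes separated the groups on every array. On the log2 scale Elavl3 spanned 10.52 to 11.39 in the wild-type group and 5.53 to 6.94 in the double knockouts. Elavl4 spanned 7.42 to 7.69 and 5.88 to 6.49. Both passed limma's test, with adjusted p = 3.15e-05 and 0.0130, and Elavl4 did not pass without some single arrays. Wild-type replicate 4 stood apart from the other arrays, with correlations of 0.933 to 0.946 over all rows, while the other arrays correlated at 0.958 or more with each other. Of the forebrain and neuron markers Neurod6 was at 11.27 and Stmn2 at 11.52 in wild-type. The 3 measured markers of hindbrain and spinal cord, Hoxa2, Hoxc6 and Pax2, lay at percentiles 19.9, 33.5 and 68.2 of row means. Of the meninges markers, 2 of 5 measured, Foxc1 was at 8.72 and 8.50 without overlap between groups (limma's adjusted p = 0.79), and its part in the results was not tested.

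No ribosomal protein gene passed the test for a difference between double knockout and wild-type forebrain. Of the 35 members 0 were called higher and 0 lower by limma with Benjamini-Hochberg adjustment over all rows, and the lowest adjusted p was 0.774. Over all 65529 rows 0% were called higher and 0.00763% lower. At an unadjusted p under 0.05 there was 1 member of 35, Rps4x, on a row whose name is out of place, against 2.14% of all genes. In 0 of the 35 genes did the groups separate without overlap, against 0.968% of all genes. The median difference over the members was 0.03 log2 (double knockout minus wild-type), with 20 above 0 and 15 below. Over all genes the median was -0.03, with 39.4% above 0. Over the 25 genes with a name in place the median was 0.004, and over the 10 out of place 0.12. With quantile normalization the in-place median was -0.045 and that of all genes -0.051.

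The intervals bound how large a difference could have been. Rpl7, Rpl29, Rpl32l and Rps23 lay below percentile 10 of row means, where an interval does not bound a change, and were left out of this count. For 23 of the other 31 genes (74.2%) the 95% interval lay within 1.5-fold in either direction, against 91.1% of all genes. For 28 (90.3%) it lay within 2-fold, against 99.0%. The shares of all genes are without a filter on level. Without that filter 92.0% of the 25 members in place were within 1.5-fold, against 91.7% of all genes in place. Of the 10 members out of place 40.0% were. Among the 18 large-subunit genes in place of the 31 the interval was within 1.5-fold for every one. The exceptions in place were both small-subunit names, Rps18 and Rps4l. A lower RNA content of every cell cannot be told apart from fewer cells of a type in whole forebrain. Values scaled between arrays show a gene only relative to the rest of its array. In the deposited values the array medians still ran from 5.05 to 5.24.

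**Figure D1:**
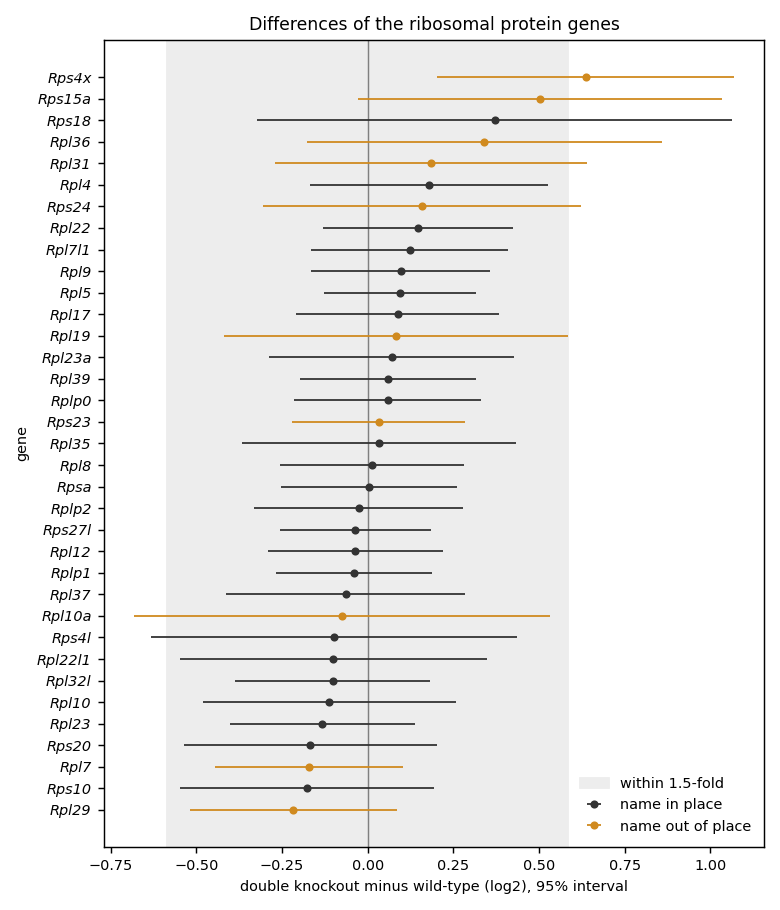
Difference between double knockout and wild-type forebrain (log2, x axis) for each of the 35 ribosomal protein genes (y axis), points with 95% intervals from limma, with 5 arrays a group. Black marks a name in place and orange a name out of place. Most black intervals cross 0 inside the grey band of 1.5-fold, and the widest departures are Rps4x, Rps15a and Rps18.

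The stalk of the large subunit, which recruits translation factors, was measured whole. Rplp0, its base, read 7.20, 7.18, 6.99, 7.40 and 7.18 in wild-type replicates 1 to 5 and 7.01, 7.29, 7.13, 7.54 and 7.27 in double knockout replicates 1 to 5. The groups overlapped over most of their range, with means of 7.19 ± 0.15 and 7.25 ± 0.20 (SD, n = 5 each). The difference was 0.06 (SE 0.124, limma's adjusted p = 0.949), with an interval from -0.22 to 0.33. Rplp1, a partner of the tip, read 6.27, 6.07, 6.36, 6.30 and 6.35 in wild-type and 6.21, 6.28, 6.06, 6.38 and 6.22 in double knockout animals. Its difference of -0.04 (SE 0.103) had an interval of -0.27 to 0.19, which bounds the change in either direction. Rplp2, the other tip protein, read 6.86, 6.89, 6.91, 7.41 and 6.65 in wild-type and 6.79, 6.99, 6.87, 7.01 and 6.93 in double knockout animals. Wild-type replicate 4 was its highest array, and the difference of -0.03 (SE 0.139) became 0.09 without it. Rpl12, which sits at the base of the stalk, differed by -0.04 (interval -0.29 to 0.22).

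Rpl5 and Rpl23 belong to the ribosomal proteins that can bind Mdm2, the ligase that removes p53, when ribosome assembly is disturbed. Rpl5 read 8.31, 8.16, 8.29, 8.41 and 8.26 in wild-type and 8.20, 8.52, 8.42, 8.45 and 8.31 in double knockout animals. Wild-type and double knockout values overlapped from 8.20 to 8.41, and the difference was 0.09 (SE 0.101, limma's adjusted p = 0.895). Its residual SD of 0.11 was among the lowest of the members. Rpl23 read 8.01, 8.11, 8.13, 8.52 and 7.96 in wild-type and 7.92, 8.02, 7.98, 8.17 and 7.98 in double knockout animals. Only wild-type replicate 4 exceeded the double knockout range, and the difference of -0.13 (SE 0.123, adjusted p = 0.882) was -0.04 without that array.

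Of 7 listed proteins at the exit tunnel rim 6 were measured, Rpl17, Rpl23a, Rpl35 and Rpl39 in place and Rpl19 and Rpl31 out of place. All 6 differences were above 0, with a median of 0.08, and 0 were called. Without double knockout replicate 4 the median was 0.01 with 2 of the 6 below 0, and without wild-type replicate 5 it was 0.006 with 4 above 0. Rpl4, which is not on that list and reaches into the tunnel, read 7.23, 7.02, 7.37, 6.59 and 6.99 in wild-type and 6.94, 7.36, 7.18, 7.45 and 7.16 in double knockout animals. Wild-type replicate 4 was its lowest array, and the difference of 0.18 (SE 0.158, limma's adjusted p = 0.877) was 0.07 without it. Rpl17, also of the tunnel wall, was at 7.66 ± 0.23 and 7.75 ± 0.16 (SD, n = 5 each). Rpl23a, a docking site for factors that meet the new chain, was at 6.38 ± 0.29 and 6.45 ± 0.23. Rpl35, its neighbour at the rim, read 5.38, 5.18, 5.33, 5.34 and 5.14 in wild-type and 4.94, 5.41, 4.87, 5.89 and 5.42 in double knockout animals. Its mean differed by 0.03, and its double knockout values spread more widely than its wild-type values, with SDs of 0.42 and 0.11, a difference in spread that was not tested. Rpl39, a small protein inside the tunnel, is encoded on the X chromosome and is described with the other X-linked gene.

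Other large-subunit genes in place gave small differences. Rpl8, near the site of peptide bond formation, was at 7.80 ± 0.14 and 7.81 ± 0.20 (SD, n = 5 each), a difference of 0.01 with an interval of -0.26 to 0.28. Rpl9, near the factor-binding site, read 7.86, 7.46, 7.68, 7.80 and 7.51 in wild-type and 7.72, 7.70, 7.57, 7.88 and 7.92 in double knockout animals. The groups shared most of that range, and the difference was 0.10 (SE 0.119, limma's adjusted p = 0.908). Rpl37 on its in-place row differed by -0.06, with wild-type replicate 4 and double knockout replicate 4 highest, at 8.32 and 8.36.

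The X-linked genes in place were Rpl10, which joins late in the maturation of the large subunit, and Rpl39. Rpl10 read 8.69, 7.98, 8.04, 7.88 and 8.12 in wild-type and 8.35, 8.04, 7.73, 8.06 and 7.97 in double knockout animals. Wild-type replicate 1 was its highest array, and the difference was -0.11 (SE 0.169, limma's adjusted p = 0.924). Rpl39 read 6.98, 6.97, 6.88, 6.89 and 6.67 in wild-type and 6.91, 6.72, 6.89, 7.22 and 6.95 in double knockout animals, a difference of 0.06 (SE 0.117). Xist, which is made from the inactive X, was high on 3 arrays, at 11.39 to 11.86. On these arrays Rpl10 was at 7.98 to 8.35 and Rpl39 at 6.88 to 6.97, inside the 7.73 to 8.69 and 6.67 to 7.22 of the other 7.

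The median residual SD was 0.274 over the 6 in-place genes with a small-subunit name, Rps4l among them. It was 0.187 over the 19 with a large-subunit name, a difference that was not tested. Rps10, at the mRNA entry side of the head, read 6.11, 6.08, 5.89, 6.78 and 5.83 in wild-type and 5.84, 6.06, 5.90, 6.00 and 6.00 in double knockout animals. One wild-type array, replicate 4, lay above all others, and the difference of -0.18 (SE 0.169, limma's adjusted p = 0.884) was -0.02 without it. Rps20, a head protein whose mutation darkens the skin of mice, read 7.55, 7.45, 7.41, 8.20 and 7.70 in wild-type and 7.63, 7.56, 7.11, 7.57 and 7.60 in double knockout animals. Wild-type replicate 4 was again highest and double knockout replicate 3 lowest, and the difference of -0.17 (SE 0.168) was -0.03 without the former. Rpsa, on the back of the small subunit and also known as a laminin receptor, averaged 7.58 ± 0.06 and 7.59 ± 0.21 (SD, n = 5 each) in the wild-type and double knockout groups. Its difference of 0.004 had an interval of -0.25 to 0.26.

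Rps18, a head protein that touches the large subunit, had the widest interval of the in-place genes. It read 7.10, 6.56, 7.49, 5.59 and 7.13 in wild-type and 7.05, 7.01, 6.99, 6.97 and 7.70 in double knockout animals. Wild-type replicate 4 was low and double knockout replicate 5 high, and the groups overlapped. The difference was 0.37 (SE 0.316, limma's adjusted p = 0.877), which was 0.07 without wild-type replicate 4. A dimmer row of the same name, out of place, read 5.92 ± 0.22 and 5.61 ± 0.21 (SD, n = 5 each), a difference of -0.31 (SE 0.140, adjusted p = 0.809). The 2 rows named Rps18 thus differed in sign, and neither passed. Rpl4 and Rpl37 also had a dimmer row out of place, at differences of 0.07 and -0.12.

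**Figure D2:**
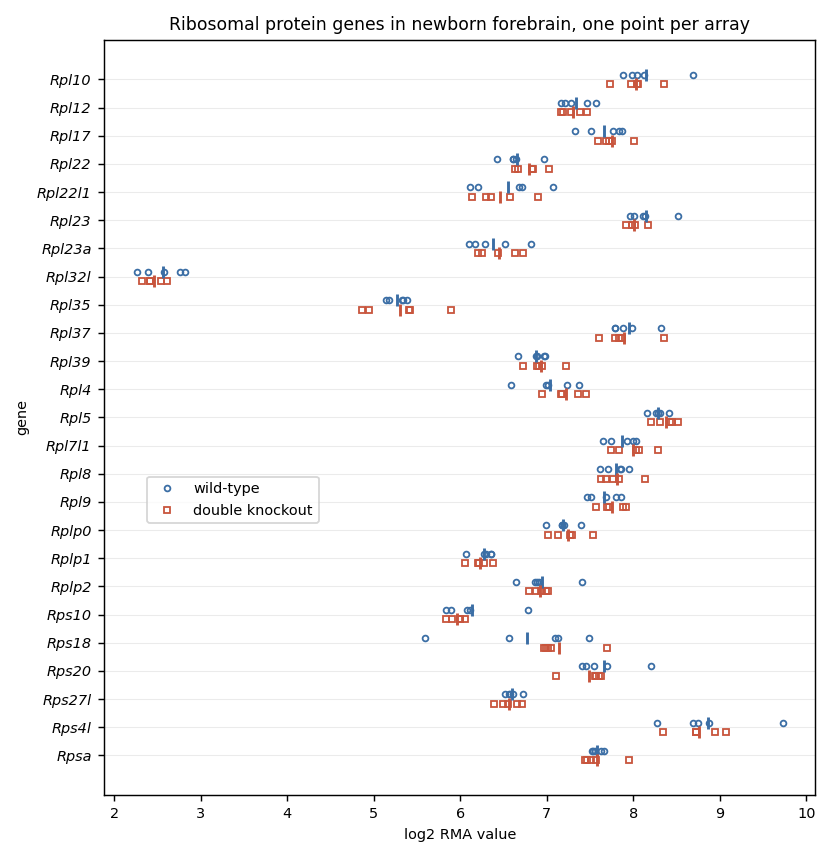
Deposited log2 value (x axis) of the 25 ribosomal protein genes with a name in place (y axis) on each array, circles for 5 wild-type and squares for 5 double knockout animals, ticks for group means. The groups overlap for each gene, and isolated wild-type points at Rps4l, Rps10, Rps18 and Rps20 belong to replicate 4. Heights of different genes are not comparable, since each row has its own probes.

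Paralogs can replace or accompany a ribosomal protein in some tissues. Of 16 listed genes of such pairs 9 were measured, 4 above 0 and 5 below, and 0 were called. Rpl22 and Rpl22l1 were both measured in place; in mice Rpl22 binds the RNA of its paralog and holds its level down. Rpl22 read 6.97, 6.65, 6.61, 6.61 and 6.43 in wild-type and 6.67, 6.83, 7.03, 6.84 and 6.63 in double knockout animals, a difference of 0.15 (SE 0.126, limma's adjusted p = 0.877). Rpl22l1 read 6.71, 7.07, 6.20, 6.68 and 6.11 in wild-type and 6.35, 6.14, 6.58, 6.90 and 6.30 in double knockout animals, a difference of -0.10 (SE 0.205, adjusted p = 0.946). The groups of both genes overlapped, and neither difference exceeded the spread between animals. Rpl7l1, a paralog of Rpl7, read 8.03, 7.65, 8.0, 7.74 and 7.93 in wild-type and 8.07, 7.74, 7.84, 8.28 and 8.03 in double knockout animals. The groups overlapped, with a difference of 0.12 (SE 0.131). The row named Rpl7, out of place and dim, read 3.18, 2.70, 2.64, 2.85 and 2.66 in wild-type and 2.69, 2.45, 2.64, 2.66 and 2.73 in double knockout animals. Rps27l, a paralog of Rps27 and a p53 target, read 6.57, 6.56, 6.61, 6.73 and 6.52 in wild-type and 6.66, 6.55, 6.50, 6.71 and 6.39 in double knockout animals. Its difference of -0.04 had an interval of -0.26 to 0.18, and its residual SD of 0.107 was the lowest of all members.

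Rps4l is a member by name, but the gene table of GRCm38.p6 lists it as a transcribed pseudogene. It read 8.87, 8.27, 8.69, 9.73 and 8.75 in wild-type and 9.07, 8.73, 8.34, 8.95 and 8.73 in double knockout animals. Wild-type replicate 4 stood above the rest, and the difference of -0.10 (SE 0.243, limma's adjusted p = 0.957) was 0.12 without it. Rpl32l, an Rpl32-like gene, lay at percentile 0.3 of row means, near the bottom of the range. It read 2.26, 2.58, 2.82, 2.76 and 2.39 in wild-type and 2.32, 2.41, 2.42, 2.54 and 2.61 in double knockout animals. Its groups overlapped, with a difference of -0.10 (SE 0.130).

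Ribosomal protein names were out of place far more often than names in general. Of the 38 rows 13 (34.2%) were out of place, against 448 of 15265 positioned single-symbol rows (2.93%). For 6 of the 13 the gene table holds a relative of the same name between the flanking named genes. These are Rpl10a-ps1 for Rpl10a, Rps15a-ps6 for Rps15a, Rpl19-ps6 for Rpl19, Rpl36-ps12 for Rpl36, Rps18-ps4 and Rps18-ps6 for the dimmer Rps18 row, and Rpl37rt for the dimmer Rpl37 row. The last is listed as protein coding and Rps15a-ps6 as a transcribed pseudogene. For the other 7 rows no relative of that name lies there. The gene table names 321 pseudogenes after a ribosomal protein, and 28 of the 35 members have 1 or more. Whether these rows read the gene, a copy or both was not tested.

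The 2 largest differences of the members lay on rows out of place. The row named Rps4x, a small-subunit gene of the X chromosome, lies among rows of chromosome 18 between Wac and Fzd8. It read 3.06, 3.07, 3.22, 3.33 and 3.59 in wild-type and 4.25, 3.61, 4.39, 3.40 and 3.80 in double knockout animals. The groups overlapped between 3.40 and 3.59, and all values were low, at percentile 16.7 of row means. The difference was 0.64 (SE 0.197, interval 0.20 to 1.07), with an exact permutation p of 0.0159, an unadjusted limma p of 0.00802 and an adjusted p of 0.774. Over the omissions of single arrays it lay between 0.51 and 0.76. The smallest exact p that 5 against 5 arrays allow is 0.00794.

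Rps15a, the name of a small-subunit gene, lies on a row among rows of chromosome 11 between Nudcd3 and Npc1l1. Wild-type values were 5.32, 5.63, 5.40, 4.27 and 4.73, and double knockout values 5.60, 5.53, 5.54, 5.91 and 5.29. The 2 lowest arrays were wild-type replicates 4 and 5, and the difference of 0.50 (SE 0.242, limma's adjusted p = 0.821) was 0.30 without replicate 4. Rpl36 read 5.35, 6.14, 5.67, 6.02 and 5.68 in wild-type and 5.32, 6.56, 6.07, 6.13 and 6.48 in double knockout animals. That row differed by 0.34 (SE 0.236, adjusted p = 0.859), and double knockout replicate 1 was as low as wild-type replicate 1. Rps24, Rpl31, Rpl19 and Rpl10a differed by 0.16, 0.18, 0.08 and -0.07, with residual SDs between 0.35 and 0.49. Rpl29, Rpl7 and Rps23, named for large-subunit and decoding-site proteins, lay at percentile 2.0 or lower of row means, at differences of -0.22, -0.17 and 0.03.

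Many in-place members shared a shift on single arrays, while the group means of these shifts were alike. The median deviation of the 25 in-place genes from their own means was -0.02 ± 0.10 over wild-type arrays and -0.02 ± 0.11 over double knockout arrays (SD, n = 5 each). It was highest in double knockout replicate 4, at 0.15, where 22 of the 25 genes were above their own mean and 10 had their highest value. Over all genes 58.6% were above their own mean on that array and 19.9% had their highest value there. Wild-type replicate 5 was lowest, at -0.13, with 5 genes above their mean and 9 at their lowest value, against 56.3% and 6.76% of all genes. With quantile normalization wild-type replicate 4 was highest instead, at 0.16, and double knockout replicate 4 next, at 0.11 with 20 of 25 above their mean, and double knockout replicate 1 was lowest, at -0.15.

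**Figure D3:**
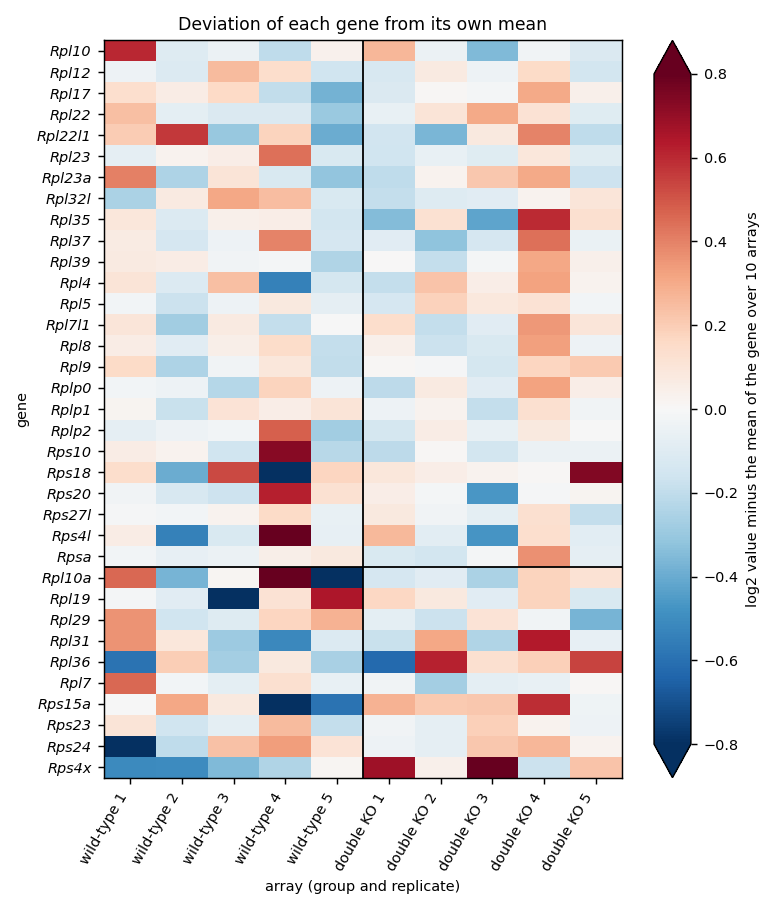
Deviation of each ribosomal protein gene (y axis) from its own mean over 10 arrays, in log2 (colour), for each array (x axis); the horizontal line parts the 25 names in place, above, from the 10 out of place. Double knockout replicate 4 is red for 22 of the upper 25 genes, and the dark cells of wild-type replicate 4 run in both directions.

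On wild-type replicate 4 the median deviation of the in-place genes was 0.09, and 17 of the 25 were above their own mean (68.0%, against 52.0% of all genes). On it 6 of the 25 (24.0%) had their highest value and 2 (8.0%) their lowest, and over all genes these shares were 26.5% and 23.5%. Rps4l, Rps10, Rps20, Rps27l, Rpl23 and Rplp2 were highest on it, and Rps18 and Rpl4 lowest. The median difference of the in-place genes was 0.05 without this array and -0.07 without double knockout replicate 4, on either side of the 0.004 with all arrays. The median residual SD was 0.190 for the in-place genes, Rpl32l among them. It was 0.158 for the 7876 genes within the range of levels of the other in-place genes, 5.29 to 8.81, and 0.156 for all genes. Without wild-type replicate 4 it was 0.181, 0.140 and 0.137 in turn, and these differences were not tested.

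Genes that make ribosomes were also without a call. Of 51 listed ribosome assembly factors 35 were measured, 21 above 0 and 14 below, with a median difference of 0.03 and 0 past the test. Rrs1, which in yeast helps bring the 5S particle into the large subunit, had the largest difference among them, at 7.25 ± 0.12 and 7.82 ± 0.39 (SD, n = 5 each), a difference of 0.57 with limma's adjusted p = 0.774. Riok1, a kinase of small-subunit maturation, differed by 0.22. Of 15 listed genes of RNA polymerase I, which makes the large ribosomal RNAs, 6 were measured with a median of 0.06 and 0 called, among them Taf1d at 0.20 and Taf1b, whose name is out of place, at 0.20. Fau, a small-subunit protein under another name, was at 6.14 ± 0.28 and 6.28 ± 0.27 (SD, n = 5 each), a difference of 0.14.

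Other TOP mRNAs and the pathway that controls them gave the same count. Of 16 listed TOP mRNAs 9 were measured, 3 of them on rows out of place. Of the 9, 8 were above 0 (88.9%, against 39.4% of all genes), with a median of 0.09 and 0 called. Double knockout replicate 4 was their highest array, and the count above 0 without it was not examined. Eef1a1, the factor that delivers aminoacyl-tRNA, was at 11.58 ± 0.13 and 11.79 ± 0.26 on a row out of place, a difference of 0.21. Eef1g, of its exchange complex, differed by -0.29 on a dim row, at percentile 12.8 of row means. Of 14 regulators of the mTORC1, Larp1 and Myc list 10 were measured, 4 above 0, with a median of -0.01 and 0 called. Eif4ebp2, a brake on cap-dependent translation, differed by 0.33 (SE 0.165, limma's adjusted p = 0.829), and Max, the partner of Myc, by 0.13. Of 8 listed p53 response genes 3 were measured and 0 called, with Sesn2 at -0.20 and Phlda3 at -0.09.

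In the deposited values double knockout replicate 4 was the highest array for the in-place members, assembly factors, RNA polymerase I genes and other TOP mRNAs. On other arrays these groups could differ in sign. In double knockout replicate 4 the mean deviation from each gene's own mean was 0.21 for the 25 in-place members, 0.30 for assembly factors, 0.24 for RNA polymerase I genes, 0.21 for other TOP mRNAs and 0.05 for all genes. On wild-type replicate 5 it was -0.12 for the members and -0.07, -0.08 and -0.10 for these lists in turn. On wild-type replicate 4 the members were at 0.09 and the lists at -0.11, -0.18 and -0.06, also in the deposited values. With quantile normalization that array had the highest median deviation of the members, at 0.16. Markers of the choroid plexus, of which 3 of 6 were measured, were also highest in double knockout replicate 4, at a mean deviation of 0.98. Wild-type replicate 1 was close to that, at 0.95, and wild-type replicate 5 was lowest, at -1.58. The signs of markers and members matched on some arrays and differed on others. On wild-type replicates 1 and 3 the markers were at 0.95 and 0.83 and the members at 0.08 and 0.02. In double knockout replicate 1 the markers were at -1.22 and the members at -0.06. On wild-type replicate 2 the markers were at 0.86 and the members at -0.09. On wild-type replicate 4 they were at -0.61 and 0.09 in turn. In double knockout replicate 3 they were at 0.70 and -0.09. For double knockout replicates 2 and 5 the markers were at 0.18 and -1.08 and the members at -0.03 and 0.004. Residual SDs of the 3 markers ran from 0.12 to 2.61. Mean deviations of the markers ranged from -1.58 to 0.95 in wild-type and -1.22 to 0.98 in double knockout arrays. Neuron and forebrain markers, 6 of 10 measured, were at 0.15 on double knockout replicate 4 and -0.15 on wild-type replicate 4. The part of these cell types in the ribosomal protein values was not tested.

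**Figure D4:**
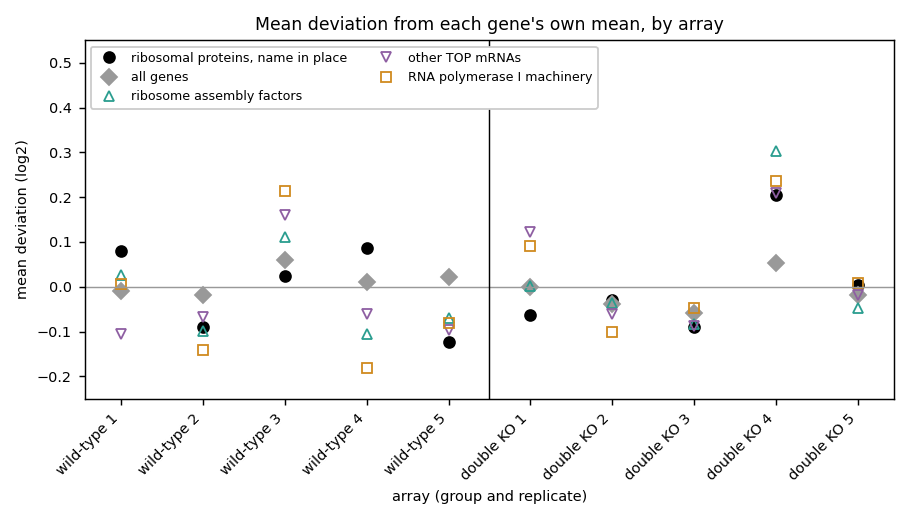
Mean deviation of gene groups from each gene's own mean, in log2 (y axis), on each array (x axis); filled circles are the 25 in-place ribosomal protein genes, filled diamonds all genes and open marks 3 related lists. On double knockout replicate 4 the ribosomal proteins stand at 0.21 and all genes at 0.05, and the other 4 double knockout arrays lie near or below 0 for the ribosomal proteins.

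Rows with several symbols, a ribosomal protein among them, cannot be assigned to a single gene. Whether they name genes other than the members was not examined. On the 48 such rows the differences ran from -0.22 to 0.37 with a median of 0.01, and 0 were called. On 45 of them the interval lay within 1.5-fold, which bounds the row and not any single gene. The 9 rows named only for a ribosomal protein pseudogene had differences between -0.34 and 0.32 and no call.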

How the data were processed

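The deposited values are log2 expression values that the authors made, per the submitters' processing notes, with Expression Console of Affymetrix by RMA, on mouse build mm8. RMA subtracts background, equalises the arrays and summarises probes. The sources used here do not give versions, annotation or level of summary, and the number of arrays limits the precision. Of 65529 rows, 15419 had 1 symbol, 961 several and 49149 none. Symbols were updated through gene identifiers (15071 rows) or symbols (197 rows) against RefSeq GRCm38.p6, used for names, chromosomes and gene order only. Sequences are RefSeq's, on GRCm38.p6.

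Groups were fitted with limma 3.58.1 in R 4.3.3 over all rows, without pairs, since the labels name none. P-values are two-sided and adjusted by Benjamini-Hochberg over all rows, at a threshold of 0.05. Single genes also had an exact two-sided permutation test over 252 splits. The fit was tested on simulated data. Members, lists and tests were chosen with earlier results of these data known. Named were the stalk, paralog and X-linked genes and the 6 highest and 6 lowest differences in place, with those out of place as uncertain; from other lists, the 2 smallest p-values. Further genes were named by role, after their values were seen. Replicates are numbered by order of deposit. Alternatives were other normalizations, row filters and variance settings, a pair block, an Xist covariate and leaving out each array; the closing section gives their effect.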

Additional observations from a re-analysis of the deposited data

Results flagged for a closer look

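A group of 5 values was set apart when 1 value's gap to the nearest was large beside the range of the group, by Dixon's 95% critical value. This was examined in 74 groups, where chance gives about 1 in 20, and 4 were found. Rps18 was 7.70 in double knockout replicate 5, against 6.97 to 7.05 in the other 4 animals. Rps20 was 7.11 in double knockout replicate 3, against 7.56 to 7.63. Rpsa was 7.95 in double knockout replicate 4, against 7.44 to 7.57. Elavl3 was 10.52 in wild-type replicate 3, against 11.16 to 11.39. None of the 4 was on wild-type replicate 4.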

How the results depend on the processing

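The count of members called stayed at 0 higher and 0 lower in all 19 alternatives: quantile normalization, median centring, dim rows left out (28 members kept), single-symbol rows only, trend and robust settings, a block of pairs by nearest animal number, an Xist covariate, the mean over all rows of a gene, names in place only and each of 10 arrays left out. The lowest adjusted p of any member in them was 0.573, for Rps4x. The median difference moved between -0.049 (without double knockout replicate 4) and 0.063 (without wild-type replicate 4), and was -0.002 without wild-type replicate 5. With names in place only it was 0.004, with quantile normalization 0.006 and with the block 0.032. Of the 35 differences 18 kept their sign in every alternative and 17 changed it in 1 or more. The pair block, the row filters and the trend and robust settings leave a difference as it is by design, so these could not change a sign. Rps18 went from 0.37 to 0.03 with the mean over all rows of the gene and to 0.07 without wild-type replicate 4. The count at an unadjusted p under 0.05 ranged from 0 to 2.

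Elavl4 no longer passed when Xist entered the fit (-1.30, adjusted p = 0.0522) and with the replicate block (-1.32, adjusted p = 0.0982), and without 7 of the 10 arrays in turn (-1.377 to -1.294, adjusted p = 0.0523 to 0.0761). Over all 10 omissions its difference ran from -1.377 to -1.224. Pairs by nearest animal number deviated together at correlations from -0.001 to 0.156, over 0.1 in 2 of 5. Of the 10 arrays 6 correlated best with their own pair. Whether the numbers mark littermates was not tested. The main fit left pairs out because the labels name none, not because of these correlations. The 4 members at the lowest percentiles lie near the bottom of the arrays' range, where small differences cannot be measured.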
